A study of Mus musculus with 24 samples.

Results

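The hormones that mouse islets make outside the β-cells were followed through 5 transcripts, Gcg, Sst, Ppy, Pyy and Ghrl, which were taken by gene symbol from the 41549 genes in the deposited mRNA sequencing table. Each symbol had 1 row, and all 5 passed the filter on low counts. Gcg codes for proglucagon, the precursor of glucagon in α-cells. Sst codes for somatostatin, made by δ-cells. Ppy codes for pancreatic polypeptide, the product of PP cells, and Pyy for peptide YY, a relative of Ppy in the neuropeptide Y family. Ghrl codes for ghrelin, the product of the rare ε-cells.

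The libraries came from islets of wild-type mice that were isolated, dispersed into cells and transfected with an antisense oligonucleotide (ASO), either a control (Ctr) or one directed against 5'tRF Glu(CTC) (αGlu), a fragment from the 5' end of a glutamate transfer RNA. The transfected cells were then exposed to palmitate (PA), a saturated fatty acid used to model lipotoxic stress, or kept with albumin alone (BSA). This gave 4 groups of 6 libraries (Ctr BSA and αGlu BSA, Ctr PA and αGlu PA), named below with the S number of each library, and every group had 3 libraries in each of 2 batches. All libraries hold the cells of whole dispersed islets, in which the β-cell is the prevailing type, so that a lower hormone transcript could reflect fewer cells of a type or less RNA per cell, and these cannot be told apart.

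Islet hormones act on one another over short distances. Glucagon raises the release of glucose from the liver and also stimulates β-cells, somatostatin restrains the secretion of both insulin and glucagon, and pancreatic polypeptide and peptide YY signal through the Y receptors. Ghrelin becomes active only after an enzyme, coded by Mboat4, attaches a fatty acid to it, and its receptor, coded by Ghsr, is found on δ-cells.

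The αGlu oligonucleotide is shown with its target because it is the agent that separates αGlu from Ctr libraries. Both are printed 5' to 3', and capitals mark the bases of the target, 2 to 21 of its 21, that are complementary to the 20 bases of the oligonucleotide.
αGlu ASO: taaccactagaccaccaggg
5'tRF Glu(CTC) target: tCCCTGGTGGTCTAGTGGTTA

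All 5 genes lie on the minus strand in GENCODE M21 (GRCm38). Gcg is at chr2:62474530-62483650, and the longest of its 3 annotated transcripts has 6 exons. Sst is at chr16:23889573-23890958 with 1 transcript of 2 exons. Ppy, at chr11:102099930-102101319, and Pyy, at chr11:102106676-102107832, are neighbours separated by 5356 bases with no gene annotated between them. Ghrl is at chr6:113716119-113719880. No annotated gene overlapped Gcg, Sst, Ppy or Pyy. Ghrl overlapped 2 genes on the opposite strand, Gm44033, which had no counts, and Gm26982, which had 56 to 126 counts per library. The libraries were made with a stranded kit, but whether counting used the strand is not given in the sources used here, so reads of Ghrl and Gm26982 may not have been kept apart. Gm26982 lay between 2.80 and 4.501 CPM in Ctr BSA and between 2.23 and 3.97 CPM in Ctr PA, where CPM is the count scaled to the TMM-corrected library size.

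The 150 bases before the transcription start are shown for Sst and Ghrl, whose transcripts fell with PA under both ASOs, and for Gcg, whose transcript did not pass the test (RefSeq, GRCm38.p6, printed 5' to 3' along the minus strand; for Ghrl the most upstream of 4 listed starts; the RefSeq start of Sst lies downstream of the GENCODE one). Capitals mark matches to the cAMP response element TGACGTCA, which reads the same on both strands, and to the TATA box TATAAA on either strand. The windows are chr16:23890845-23890994 for Sst, chr6:113719912-113720061 for Ghrl and chr2:62483654-62483803 for Gcg.
Sst: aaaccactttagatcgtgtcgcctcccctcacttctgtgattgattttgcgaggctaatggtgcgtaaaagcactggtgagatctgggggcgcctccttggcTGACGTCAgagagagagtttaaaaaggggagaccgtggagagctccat
Ghrl: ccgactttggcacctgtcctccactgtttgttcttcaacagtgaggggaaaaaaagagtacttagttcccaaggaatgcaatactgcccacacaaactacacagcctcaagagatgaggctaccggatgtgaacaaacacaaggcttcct
Gcg: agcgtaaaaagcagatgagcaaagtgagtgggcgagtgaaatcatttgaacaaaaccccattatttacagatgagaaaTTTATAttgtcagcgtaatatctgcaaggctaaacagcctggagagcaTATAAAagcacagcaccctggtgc

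The Sst window held the cAMP response element at -48 to -41 from the start, a match found in 1.36% of the 32851 windows of the same length over all genes. TATAAA was found in the Gcg and Ppy windows and in 7.57% of all windows, and neither motif was found in those of Pyy and Ghrl. These are matches of letters in a window and not measured sites.

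Library totals ran from 18214719 counts, in Ctr BSA S1, to 35001979, with a median of 26701201.5. The 5 genes took between 1.02% and 2.74% of all counts, with a median of 1.60%. Adding the β-cell hormones Ins1, Ins2 and Iapp, the 8 islet hormone genes took 10.1% to 15.7%. Levels of different genes were compared as deposited TPM, which corrects for transcript length, and all changes between groups as CPM or as log2 fold changes of edgeR's quasi-likelihood test.

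Gcg was the most abundant of the non-beta hormone transcripts in each library, with 17662 TPM in the lowest library, a median of 27131 TPM and 49105 TPM in the highest. It ranked between 4th and 9th among all genes, behind Ins2, Ins1 and Iapp in each library. Ppy followed with 1462 TPM in the lowest library, a median of 3280 TPM and 5307 TPM in the highest. Gcg exceeded Ppy by 5.94-fold to 15.3-fold within libraries.

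Pyy reached 897 TPM in the lowest library, a median of 1491 TPM and 2431 TPM in the highest. Ppy exceeded Pyy in 24 of 24 libraries, by a median of 2.21-fold. Sst had 699 TPM in the lowest library, a median of 1116 TPM and 1841 TPM in the highest. Pyy and Sst were the only neighbours in this order that traded places. Pyy was the higher of the 2 in 20 of 24 libraries, in all 12 PA libraries and in 4 of 6 in both BSA groups, and the mean log2 ratio of 0.41 ± 0.42 (SD, n = 24) was smaller than its spread.

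Ghrl stood far apart, with 0.603 TPM in the lowest library, a median of 1.43 TPM and 11.2 TPM in the highest. Sst exceeded it by 122-fold to 2283-fold. Ghrl rested on 6 to 111 counts per library, with a median rank of 12816 among all genes, so that its values are much less precise than those of the other hormones.

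**Figure D1:**
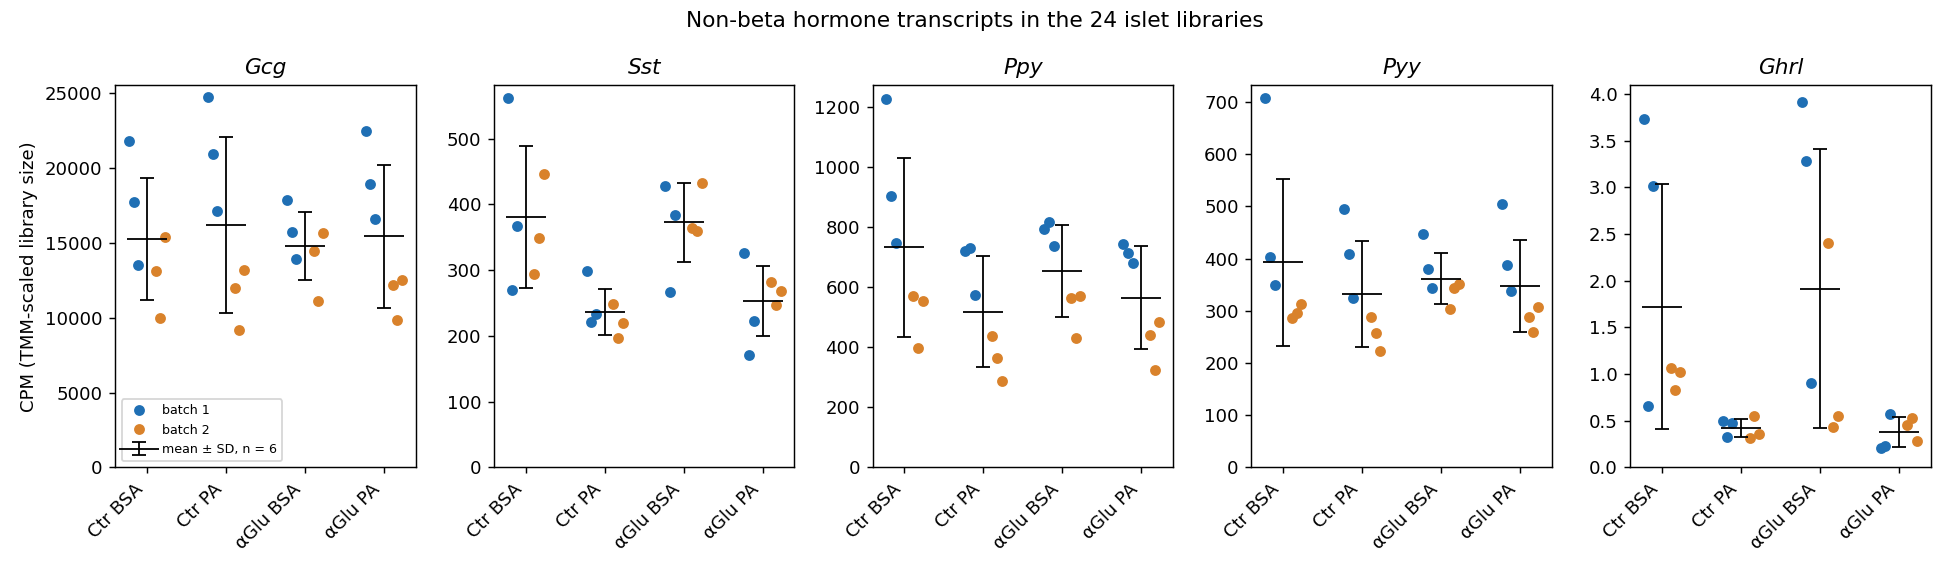
CPM of Gcg, Sst, Ppy, Pyy and Ghrl (y axes, each from 0) in the 6 libraries of each group (x axes), with blue points for batch 1, orange points for batch 2 and bars for mean ± SD over the 6 libraries. The means of Sst, Ppy, Pyy and Ghrl are lower in both PA groups than in the BSA groups. Under both ASOs only Sst and Ghrl passed the test. The values of Ppy in batch 2 all lie under those in batch 1, and how many genes show this was not counted.

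PA against BSA in Ctr cells addressed the effect of lipotoxic stress on the islet transcriptome. Sst, Ppy and Ghrl fell, while Gcg and Pyy did not pass the test. These are 3 of 5 hormones at an adjusted p below 0.05, in a comparison in which 30% of the 15916 tested genes were called at this threshold. Ghrl was the 1 hormone that changed by more than 2-fold at an unadjusted p below 0.05, as 5.91% of genes did.

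Ghrl fell the most. Its lowest, median and highest values were 0.660, 1.05 and 3.74 CPM in Ctr BSA and 0.317, 0.418 and 0.556 CPM in Ctr PA. The 6 PA libraries all lay under the 6 BSA libraries, a separation seen in 1 of the 5 hormones and in 5.82% of all tested genes. The log2 fold change was -1.89 ± 0.49 (SE, edgeR adjusted p = 0.00524), a level 3.71-fold lower. Within batches the log2 fold change was -2.48 in batch 1 (adjusted p = 0.0346) and -1.25 in batch 2 (adjusted p = 0.202), so that the call was lost in batch 2 alone. Without S1, the Ctr BSA library highest in CPM but not in TPM, it was -1.63 over both batches (edgeR adjusted p = 0.0149).

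Sst values in Ctr BSA were 269 CPM at the lowest, 358 CPM at the median and 562 CPM at the highest. In Ctr PA they were 197, 227 and 299 CPM. The groups overlapped, since the lowest BSA library of each batch, at 269 and 294 CPM, lay under the highest PA library, at 299 CPM in batch 1. Within batch 2 they were separate, and the highest PA library had 249 CPM, but Ins1, Ins2 and Iapp were separate there too. How many of all genes separate with 3 libraries a group was not counted. Sst was 1.61-fold lower, with a log2 fold change of -0.69 ± 0.16 (SE, edgeR adjusted p = 0.00212). It was -0.68 in batch 1 (adjusted p = 0.133) and -0.71 in batch 2 (adjusted p = 0.00533), so that both batches gave a similar size and batch 1 alone did not pass. Without S1, the Ctr BSA library highest in CPM but not in TPM, the log2 fold change was -0.54 (edgeR adjusted p = 0.00785).

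Ppy values were 399, 660 and 1227 CPM in Ctr BSA and 288, 506 and 730 CPM in Ctr PA, as lowest, median and highest. The pooled groups overlapped widely, and Ppy was lower in batch 2, as described below. In batch 1 the 3 BSA libraries began at 748 CPM, above the 730 CPM of the highest PA library. Ins1, Ins2 and Iapp were separate in batch 1 too, and the share of all genes was not counted. Ppy was 1.41-fold lower, with a log2 fold change of -0.50 ± 0.13 (SE, edgeR adjusted p = 0.00413). The fold change was -0.52 in batch 1 (adjusted p = 0.0406) and -0.49 in batch 2 (adjusted p = 0.111), and the call was also lost when the batch term was left out (adjusted p = 0.214). Without S1, the Ctr BSA library highest in CPM but not in TPM, the log2 fold change was -0.39 (edgeR adjusted p = 0.0146).

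Pyy values were 286, 332 and 708 CPM in Ctr BSA and 223, 306 and 495 CPM in Ctr PA. The groups overlapped, and the highest value was that of Ctr BSA S1, the smallest library. The log2 fold change of -0.24 ± 0.14 (SE) did not pass (edgeR adjusted p = 0.218), and it was -0.057 without S1.

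Gcg values were 10017, 14466 and 21799 CPM in Ctr BSA and 9204, 15169 and 24782 CPM in Ctr PA. The ranges were nearly the same. The log2 fold change was 0.048 ± 0.15 (SE, edgeR adjusted p = 0.838), with a 95% interval from -0.26 to 0.35, which covers changes from 0.837-fold to 1.28-fold. It was 0.24 in batch 1 and -0.16 in batch 2, and neither value passed.

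The β-cell hormones moved in both directions in the same libraries. The insulin genes Ins1 and Ins2 fell (log2 fold changes of -0.44 and -0.34), while Iapp, which codes for amylin, rose by 0.43 on the log2 scale (edgeR adjusted p = 0.000580, 0.00880 and 0.00187).

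PA against BSA in αGlu cells asked for the same response with the fragment blocked. Sst and Ghrl fell, and Gcg, Ppy and Pyy did not pass. These are 2 of 5 hormones at an adjusted p below 0.05, against 28.5% of all tested genes, and Ghrl again was the 1 hormone past a fold change of 2, against 5.57%.

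Ghrl had 0.437, 1.66 and 3.91 CPM as lowest, median and highest values in αGlu BSA and 0.214, 0.370 and 0.574 CPM in αGlu PA. The groups overlapped through 2 of the BSA libraries of batch 2, so that 0 of the 5 hormones separated fully, against 8.12% of all tested genes. The log2 fold change was -2.20 ± 0.50 (SE, edgeR adjusted p = 0.00172), a level 4.58-fold lower. It was -2.99 in batch 1 (adjusted p = 0.0189) and -1.41 in batch 2 (adjusted p = 0.152).

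Sst had 267, 374 and 433 CPM in αGlu BSA and 171, 258 and 326 CPM in αGlu PA. The groups overlapped in batch 1 and were separate in batch 2, where the BSA libraries began at 360 CPM and the PA libraries ended at 281 CPM. Ins1 and Ins2 were separate there too, Iapp was not, and the share of all genes was not counted. Sst was 1.47-fold lower, with a log2 fold change of -0.56 ± 0.16 (SE, edgeR adjusted p = 0.0104). The value was -0.59 in batch 1 (adjusted p = 0.205) and -0.54 in batch 2 (adjusted p = 0.0211).

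Ppy had 433, 654 and 819 CPM in αGlu BSA and 324, 583 and 744 CPM in αGlu PA, with a log2 fold change of -0.23 ± 0.13 (SE, edgeR adjusted p = 0.169); it was lower with PA in each of the 6 runs of 4 consecutive S numbers, and with the runs as a block it did not pass either (adjusted p = 0.0588). Pyy had 303, 347 and 447 CPM in αGlu BSA and 260, 322 and 504 CPM in αGlu PA, with a log2 fold change of -0.082 ± 0.14 (SE, edgeR adjusted p = 0.713). Gcg had 11144, 15085 and 17878 CPM in αGlu BSA and 9859, 14571 and 22500 CPM in αGlu PA, with a log2 fold change of 0.0064 ± 0.15 (SE, edgeR adjusted p = 0.981). The ranges of all 3 overlapped. Ins1 fell and Iapp rose, with log2 fold changes of -0.32 and 0.44 (edgeR adjusted p = 0.00864 and 0.00168), and Ins2 had a log2 fold change of -0.22 that did not pass (adjusted p = 0.0968).

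**Figure D2:**
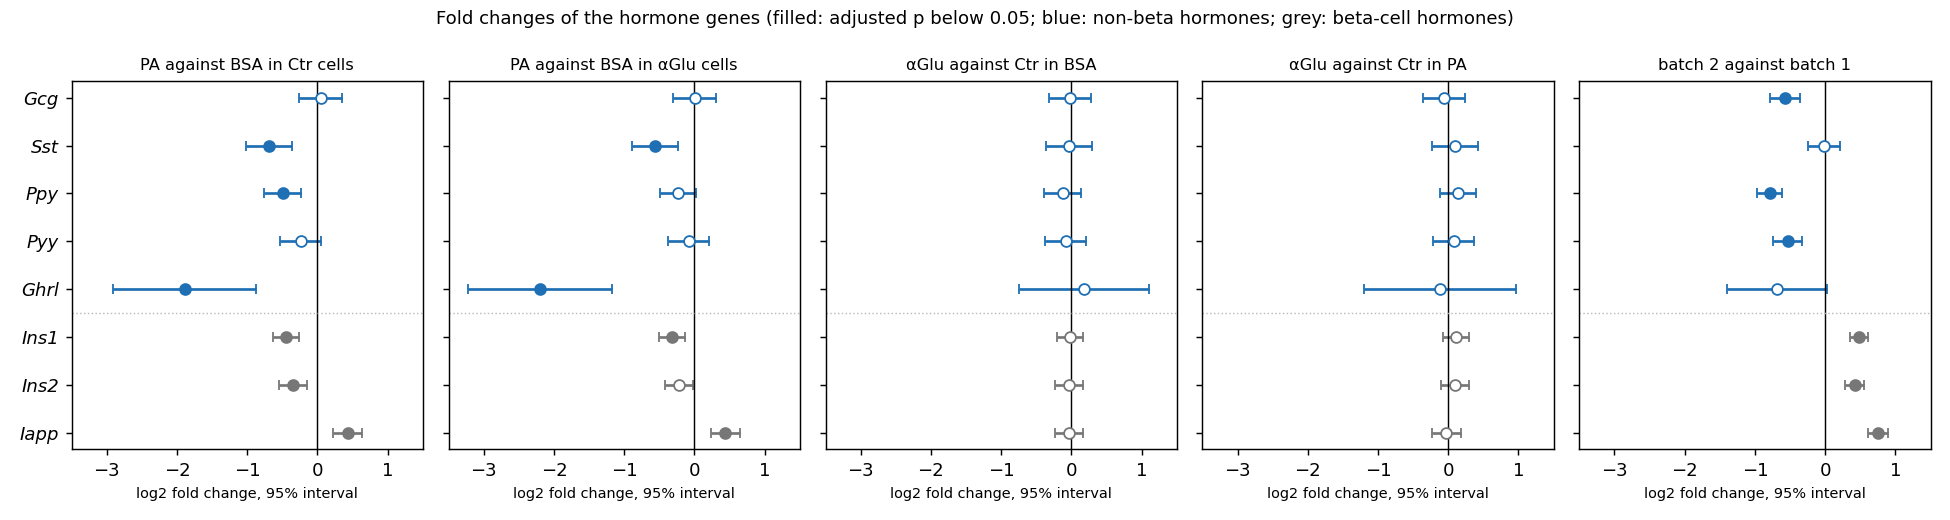
Log2 fold changes (x axes) with their 95% intervals for the non-beta hormones (blue) and β-cell hormones (grey) in 5 comparisons, filled where the adjusted p was below 0.05. Sst and Ghrl are filled and to the left of 0 for PA under both ASOs, no hormone is filled in either αGlu comparison, and in the batch comparison Gcg, Ppy and Pyy lie on the opposite side from Ins1, Ins2 and Iapp.

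Whether Ppy responded differently under the ASOs cannot be read from its passing in Ctr cells alone. The difference between both PA responses was 0.26 ± 0.18 (SE, log2) for Ppy, with a 95% interval from -0.10 to 0.63. For Sst it was 0.13 with an interval from -0.34 to 0.60, for Pyy 0.15 with an interval from -0.26 to 0.56, for Gcg -0.041 with an interval from -0.47 to 0.39, and for Ghrl -0.30 with an interval from -1.73 to 1.12. None of the 5 passed, and 0% of the tested genes did (edgeR, 0 genes at an adjusted p below 0.05 and 332 at an unadjusted p below 0.05, with 0 genes called by DESeq2).

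αGlu against Ctr asked what blocking the fragment did under BSA and under PA. None of the 5 hormones passed in either comparison. In BSA the log2 fold changes were -0.018 for Gcg, -0.032 for Sst, -0.12 for Ppy, -0.077 for Pyy and 0.18 for Ghrl. The 95% intervals reached from -0.38 to 0.30 at their widest over Gcg, Sst, Ppy and Pyy, and from -0.74 to 1.11 for Ghrl. In PA the values were -0.059 for Gcg, 0.097 for Sst, 0.14 for Ppy, 0.076 for Pyy and -0.12 for Ghrl. The intervals lay within -0.36 and 0.43 for the first 4 and ran from -1.20 to 0.96 for Ghrl. No gene was called in either comparison, a background of 0% in BSA and 0% in PA, while 461 and 538 genes had an unadjusted p below 0.05 in edgeR and DESeq2 called 8 and 30 genes. For Ghrl a 2-fold higher level in BSA and a 2-fold lower level in PA lie within the intervals, so that changes of this size are not excluded.

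The largest differences in Gcg, Ppy and Pyy were those between batches. Gcg ranged from 13506 to 24782 CPM in the 12 libraries of batch 1, with a median of 17799 CPM, and from 9204 to 15688 CPM in batch 2, with a median of 12344 CPM. Ppy ranged from 575 to 1227 CPM in batch 1 and from 288 to 571 CPM in batch 2, with no overlap. Iapp was separate too, with at most 20997 CPM in batch 1 and at least 21911 CPM in batch 2. How many of all genes have batches that do not overlap was not counted. Pyy ranged from 324 to 708 CPM in batch 1 and from 223 to 350 CPM in batch 2.

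In batch 2 Gcg was lower by a log2 fold change of -0.57 ± 0.11 (SE, edgeR adjusted p = 6.84e-05), Ppy by -0.79 ± 0.089 (adjusted p = 6.43e-08) and Pyy by -0.53 ± 0.10 (adjusted p = 8.30e-05). Sst did not pass at -0.018 ± 0.11 (adjusted p = 0.911), nor did Ghrl at -0.68 ± 0.35 (adjusted p = 0.103). These 3 of 5 calls stand against 51.5% of all tested genes, which is close to their share. Ins1, Ins2 and Iapp were higher in batch 2, with log2 fold changes of 0.48, 0.42 and 0.75 (edgeR adjusted p = 8.19e-07, 1.44e-05 and 3.08e-09). What distinguishes the batches is not given in the sample records.

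Acinar markers moved with the batches. All 14 exocrine acinar genes were lower in batch 2, with a median log2 fold change of -4.40, and their summed level ran from 4368 to 28616 CPM in batch 1 and from 315 to 854 CPM in batch 2. Of 9 ductal genes, 7 were lower and 1 was higher, and 4 of 9 endothelial genes were lower. Of all 15916 tested genes, 4039 were lower and 4158 higher in batch 2. The part of exocrine RNA in the batch differences of Gcg, Ppy and Pyy was not tested.

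The PA response of the hormones was compared between batches as well. In the fit that treats the libraries as independent 0 of 5 passed, against 0.0565% of all tested genes, that is 9 genes (edgeR, 983 genes at an unadjusted p below 0.05 and 43 called by DESeq2). Gcg had the smallest unadjusted p, 0.0216, with a response lower by 0.48 on the log2 scale in batch 2 (adjusted p = 0.664). In batch 1 Gcg was higher with PA in all 3 runs of 4 consecutive S numbers in both Ctr and αGlu cells, and in batch 2 it was lower in all 3. With these runs as a block, chosen after seeing the data, the difference was -0.47 ± 0.065 (SE, edgeR adjusted p = 0.000958). Of the 15916 tested genes 81 were called. How many genes rise in all runs of 1 batch and fall in all of the other was not counted. The study states that the groups of an islet experiment came from the same animal, but the labels do not say that libraries of 1 run do. The response of Ghrl was smaller in size in batch 2 by 1.40 on the log2 scale (unadjusted p = 0.0505, adjusted p = 0.808). For Sst, Ppy and Pyy the difference was 0.00020, -0.086 and -0.13.

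The share of the non-beta hormones among islet hormone transcripts was taken as the percent of the summed TPM of the 8 hormone genes, as a description with no test. Over all 24 libraries the 5 genes made up between 6.96% and 20.6% of it, with a median of 11.4%. The batches were separate, with 12.7% to 20.6% in batch 1 and 6.96% to 10.04% in batch 2. Of the TPM of these 5, Gcg held 77.0% to 87.7%, Ppy 5.72% to 12.95%, Pyy 3.51% to 5.92%, Sst 1.59% to 5.72% and Ghrl at most 0.0244%.

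In batch 1 the 5 genes held 15.03% ± 1.47 (SD, n = 3) of it for Ctr BSA and 18.3% ± 2.57 in Ctr PA, and in αGlu cells it was 14.5% ± 1.64 and 17.3% ± 2.46. In batch 2 it was 8.65% ± 1.46 in Ctr BSA and 8.26% ± 0.90 in Ctr PA, and in αGlu cells 8.76% ± 1.10 and 7.86% ± 0.86. The mean share was thus higher with PA in batch 1 and lower in batch 2, and in batch 2 the difference was smaller than the SD in Ctr cells. The Sst share was lower in PA in every pairing of ASO and batch. In Ctr cells it was 0.544% ± 0.103 in BSA and 0.389% ± 0.0487 in PA in batch 1, and 0.412% ± 0.0815 and 0.278% ± 0.00743 in batch 2. In αGlu cells it was 0.542% ± 0.102 and 0.374% ± 0.116 in batch 1, and 0.414% ± 0.0149 and 0.309% ± 0.00942 in batch 2.

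**Figure D3:**
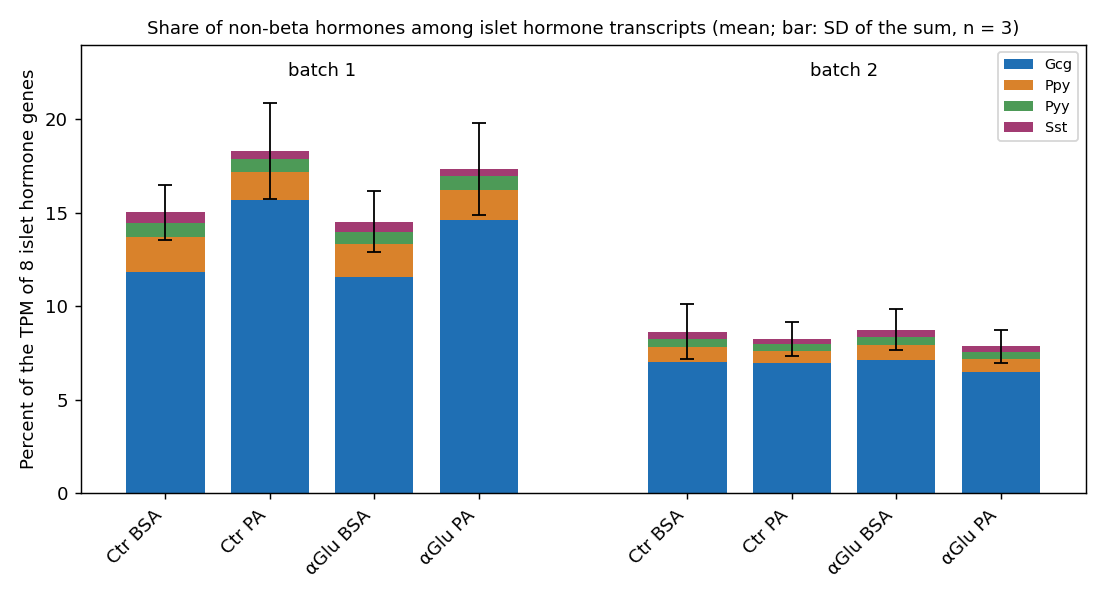
Mean share of Gcg, Ppy, Pyy and Sst (stacked, y axis in percent of the TPM of 8 islet hormone genes) in each group and batch, with the SD of their sum over 3 libraries; Ghrl is too low to be seen. Bars of batch 1 lie between 14.5% and 18.3% and those of batch 2 between 7.86% and 8.76%.

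Libraries of the same group and batch still differed from one another, and the hormones were compared over these deviations, as log2 CPM minus the mean of the group and batch (24 libraries, 10 pairs). Each run of 4 consecutive S numbers (S1 to S4, and so on) holds 1 library of each group, and libraries of 1 run tended to deviate together, so that the 24 deviations are not independent. The p-values below therefore come from an exact permutation test that moves the 6 runs as a whole within their batches, chosen after seeing the data, two-sided and adjusted over the 10 pairs. It has 36 arrangements and a smallest unadjusted p of 0.0278. A single pair at this smallest p gets an adjusted p of 0.278, so that 1 pair could not pass by itself. No pair passed, and the test cannot decide whether any 1 pair is related.

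Gcg and Ppy had r = 0.69 and rho = 0.66 (exact permutation, adjusted p = 0.278 for both). The r was 0.87 in batch 1 and 0.58 in batch 2, and 0.60 without the 2 libraries in which Gcg was farthest from its median. After the mean of each run was taken out it was 0.25. Ppy and Pyy, the neighbouring genes, had r = 0.66 and rho = 0.62 (exact permutation, adjusted p = 0.278 and 0.139), with r of 0.90 in batch 1, 0.58 in batch 2, 0.71 without the 2 farthest libraries and 0.82 with the run means taken out. Gcg and Pyy had r = 0.65 and rho = 0.63 (exact permutation, adjusted p = 0.278 and 0.139), but r was 0.95 in batch 1 and 0.086 in batch 2, so that the relation did not hold within batch 2.

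Gcg and Sst had r = 0.50 and rho = 0.65 (exact permutation, adjusted p = 0.648 and 0.417), and Sst and Pyy had r = 0.67 and rho = 0.63 (exact permutation, adjusted p = 0.648 and 0.444). Without the 2 farthest libraries r was 0.55 and 0.46. Sst and Ppy had r = 0.34 and rho = 0.33. The r of Ghrl with the other hormones ran from 0.070 with Gcg to 0.19 with Sst. All libraries share their scaling and depth across genes, and low counts add noise to Ghrl. With the 24 libraries permuted singly within group and batch, as if they were independent, r passed for Gcg with Ppy and with Pyy and for Ppy with Pyy (permutation, adjusted p = 0.0221, 0.0221 and 0.0147), and these p-values are too small for the reason given.

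**Figure D4:**
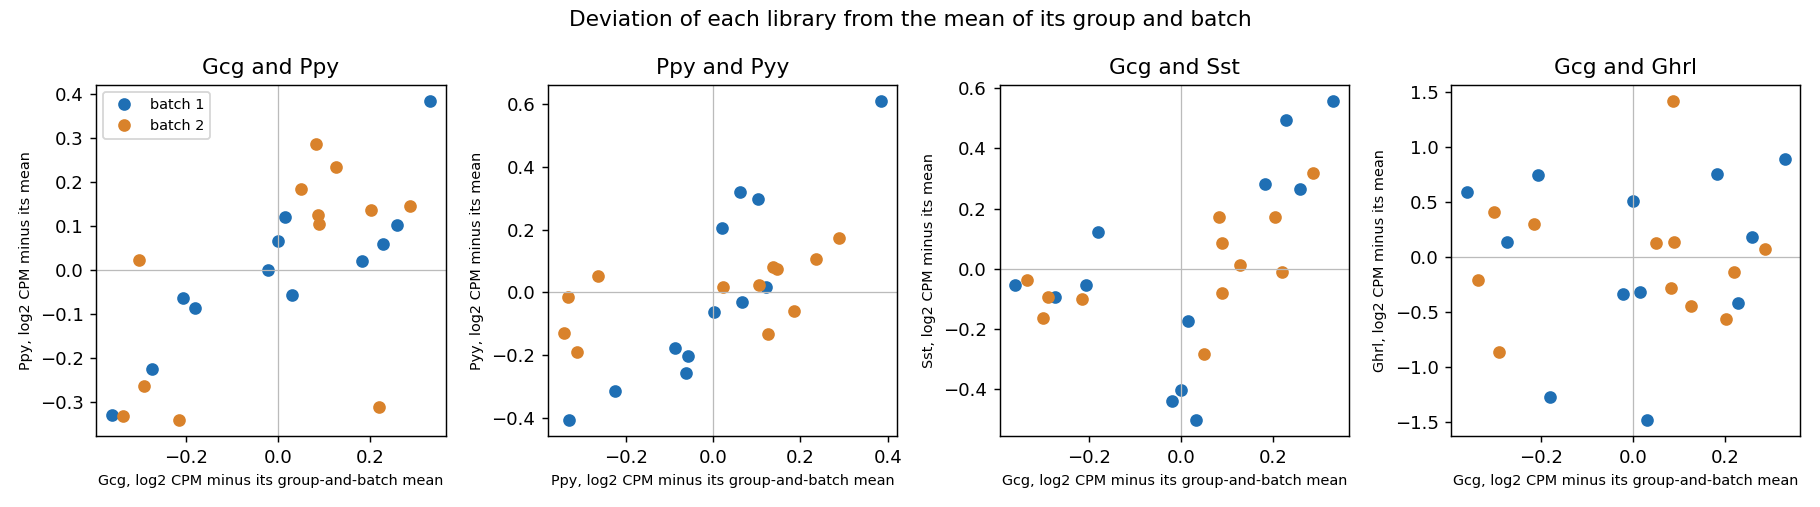
Deviation of each of the 24 libraries from the mean of its group and batch, in log2 CPM, for 4 pairs of hormones (blue for batch 1, orange for batch 2). Points rise together for Gcg with Ppy (r = 0.69) and Ppy with Pyy (r = 0.66), less closely for Gcg with Sst (r = 0.50), and show no slope for Gcg with Ghrl (r = 0.070).

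The genes whose deviations were most like those of each hormone were taken from 11051 genes with a mean of at least 5 CPM, by Pearson's r over the 24 libraries. For Gcg these were Gpx3, a secreted glutathione peroxidase (r = 0.93), Gm49980 (0.89), Gm30648 (0.88), 1700030C10Rik (0.86) and Edn3, the peptide endothelin-3 (0.86). Within batch 2 alone r ran from 0.81 for Edn3 to 0.96 for Gpx3. For Sst they were Atp6v1d, a subunit of the proton pump of acidic vesicles (r = 0.89), Nudcd3 (0.86), Tmem268 (0.86), Rbp4, a retinol-binding protein listed here among δ-cell genes (0.85), and Atraid (0.84). Within batch 2 alone these were lower, from 0.59 for Tmem268 to 0.78 for Nudcd3.

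For Ppy they were Anxa11, an annexin (r = 0.81), Irx1, a homeobox factor listed here among α-cell genes (0.80), Sfrp5 (0.79), C1qa, a complement subunit listed here among macrophage genes (0.79), and Limd2 (0.79). For Pyy they were Upb1 (r = 0.93), Dio1, a thyroid hormone deiodinase (0.88), Scg5, a chaperone of prohormone convertase 2 (0.88), Hexa, a lysosomal enzyme (0.88), and Hopx (0.87). In batch 2 alone these too were lower, from 0.44 for Hopx to 0.71 for Upb1. For Ghrl they included Apbb3 (r = 0.81), Inha, the α subunit of inhibin (0.75), Rpp25l (0.72) and Ttc4 (0.71). These are the highest values out of many genes, over libraries that are not independent, and carry no test.

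Genes that belong to the same cells or pathways were read from lists written by hand. Over all 15916 tested genes, 2467 rose and 2305 fell with PA in Ctr cells, and 2290 rose and 2253 fell in αGlu cells. In batch 2, 4158 were higher and 4039 lower. The counts of the lists below were not tested against these. The 9 α-cell identity genes, among them Irx1, Irx2, Ttr, Gc, Slc38a5 and Dpp4, were all tested. With PA in Ctr cells 2 rose and 1 fell, and their median log2 fold change was -0.011, beside 0.0074 over all tested genes. Gc, a vitamin D-binding protein enriched in α-cells, rose by 0.99 ± 0.12 and Dpp4, a peptidase that inactivates incretins, by 0.55 ± 0.067 (log2 ± SE, edgeR adjusted p = 1.90e-06 and 1.32e-06). In αGlu cells Gc and Dpp4 rose by 0.93 and 0.47 (adjusted p = 4.45e-06 and 1.24e-05) and no gene of the list fell. In batch 2, 4 were lower and 2 higher, among the lower ones Irx2, a homeobox factor, with -0.59 (edgeR adjusted p = 2.29e-05). Slc38a5, a glutamine transporter of α-cells, was the 1 gene of the list whose PA response differed between batches, lower in batch 2 (-0.68 ± 0.12, edgeR adjusted p = 0.0295).

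The 5 δ-cell identity genes (Hhex, Rbp4, Ghsr, Ffar4 and Spock3) were tested, and 0 passed in either PA comparison, with median log2 fold changes of -0.11 in Ctr and -0.24 in αGlu cells. The difference between the response of Sst and that of this list was not tested. In batch 2, Ffar4, a receptor for long-chain fatty acids, and Hhex, the δ-cell transcription factor, were lower (-0.38 and -0.32, adjusted p = 0.00725 and 0.0221).

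Of the hormone receptor list (Gcgr, Glp1r, Glp2r, Sstr1 to Sstr5, Npy1r, Npy2r, Npy4r, Npy5r and Ghsr, 13 genes), 7 had enough counts to be tested. None of the 4 Y receptors did, including Npy4r, the receptor of pancreatic polypeptide, with 0 to 19 counts per library. With PA, 0 passed in Ctr cells and 2 rose in αGlu cells, Sstr3, a somatostatin receptor, by 0.21 and Gcgr, the glucagon receptor, by 0.24 (log2, edgeR adjusted p = 0.0156 and 0.0442). Mboat4, the ghrelin acyltransferase, had 0 to 9 counts per library and was not tested.

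Of the 13 prohormone processing genes, 12 were tested. With PA in Ctr cells 4 rose and 2 fell, and in αGlu cells 3 rose and 2 fell. Pam, which amidates peptide hormones, rose by 0.35 and 0.27 (adjusted p = 0.000149 and 0.00199), and Furin, a proprotein convertase, fell (-0.47 and -0.34, adjusted p = 5.41e-06 and 0.000250). A list of 22 other peptide hormones holds Ins1, Ins2 and Iapp as well, and 12 of its genes were tested. With PA in Ctr cells 2 rose and 3 fell, and in αGlu cells also 2 rose and 3 fell, with Ins2 among those that fell in Ctr cells and Cck, the peptide cholecystokinin, in its place in αGlu cells. Npy, which codes for neuropeptide Y, the relative of Ppy and Pyy, had the smallest p of this list and fell (log2 fold changes of -1.47 and -1.70, adjusted p = 3.21e-06 and 4.86e-07). Ucn3, a β-cell peptide that stimulates δ-cells, rose by 0.58 and 0.59 (adjusted p = 5.15e-06 and 4.50e-06). Of 13 β-cell identity genes, 3 rose and 4 fell with PA in Ctr cells, 3 rose and 2 fell in αGlu cells, and all 13 were higher in batch 2. Of 12 tested endocrine transcription factors, 1 rose and 0 fell with PA in Ctr cells, and 2 rose and 1 fell in αGlu cells.

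Markers of some non-endocrine cell types were lower in PA libraries along with Sst and Ghrl. With PA in Ctr cells 7 of 8 tested stellate and fibroblast genes, 8 of 11 macrophage genes, 10 of 14 acinar genes and 3 of 9 ductal genes fell, and 0 of these rose. Of all 15916 tested genes 2305 fell in this comparison, and 2253 fell in αGlu cells. The counts in Ctr cells became 5 of 8 stellate and 5 of 11 macrophage genes without Ctr BSA S21, which held the highest macrophage signal. In αGlu cells 5 of 8 stellate genes, 1 of 11 macrophage genes and 3 of 9 ductal genes and 8 of 14 acinar genes fell, the last becoming 4 of 14 without αGlu PA S4. The summed level of the stellate and fibroblast list ran from 139 to 570 CPM in Ctr BSA and from 12.5 to 67.8 CPM in Ctr PA. In αGlu cells it ran from 95.5 to 1092 CPM in BSA and from 13.4 to 175 CPM in PA. The summed macrophage level ran from 84.1 to 379 CPM in Ctr BSA and from 85.7 to 130 CPM in Ctr PA. C1qa held a large part of this sum, with means of 84.3 CPM in Ctr BSA and 81.2 CPM in Ctr PA. For Lyz2 the means were 49.6 and 3.80 CPM. Over all libraries C1qa had 54606 counts and C1qb 1002, so that the sum is a poor measure of the list as a whole. The summed acinar level ran from 571 to 28616 CPM in Ctr BSA and from 315 to 12562 CPM in Ctr PA. Each acinar, stellate and macrophage gene had counts in at least 1 library of every group. No endothelial gene and no Schwann or glial gene passed in either PA comparison. The part of these cells in the falls of Sst, Ppy and Ghrl was not tested.

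**Figure D5:**
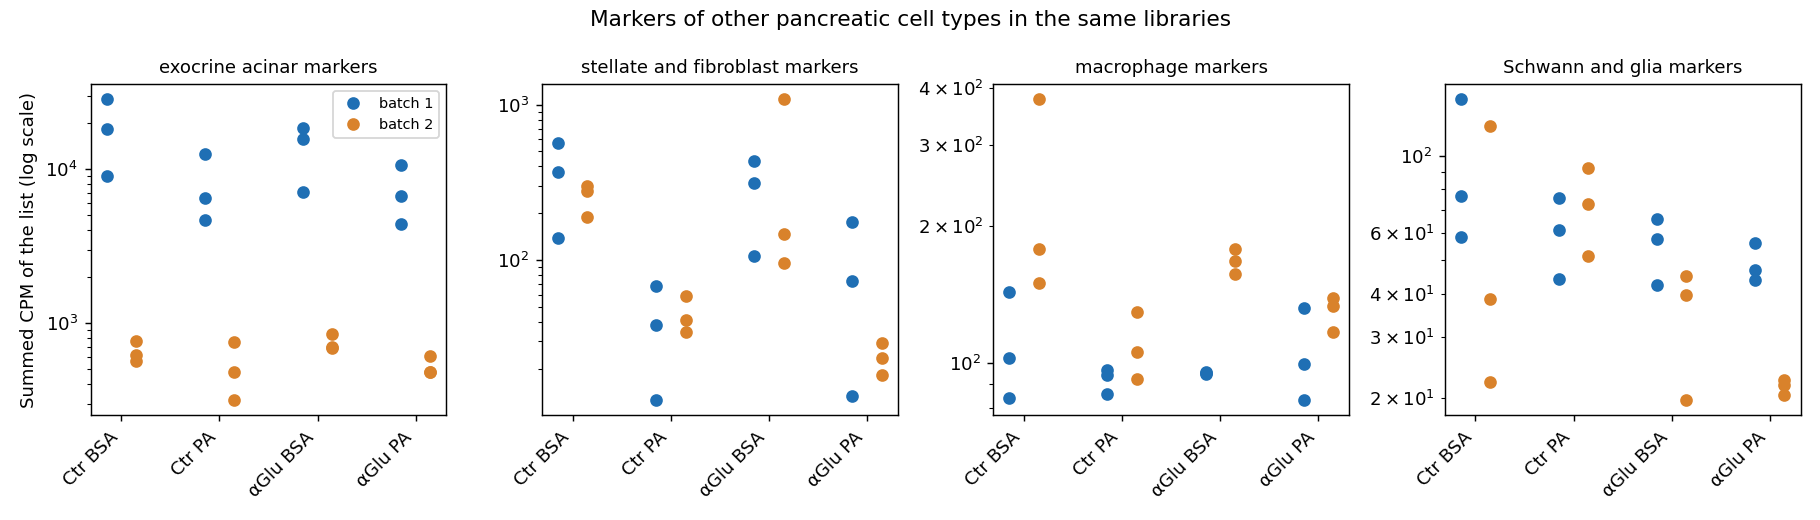
Summed CPM (y axes, log scale) of acinar, stellate and fibroblast, macrophage, and Schwann and glial marker lists in the libraries of each group (blue for batch 1, orange for batch 2). Acinar levels of batch 1 all lie above those of batch 2, and stellate levels are lower in PA, between 12.5 and 67.8 CPM in Ctr PA against 139 to 570 CPM in Ctr BSA. In the macrophage panel 1 gene, C1qa, holds a large part of the sum.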

How the data were processed

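Dispersed islet cells of wild-type mice were profiled by mRNA sequencing with a stranded kit in 24 libraries, and the authors ran their processing on the QIAGEN Portal for RNA-seq. The deposited table gives per gene and library a count of reads on exons and a TPM value, both used as the authors deposited them, with empty cells read as 0. Its RPKM and CPM columns were not used. The submitters' notes name the build GRCm38, and for the aligner and annotation nothing is stated (not given in the sources used here). Library totals ran from 18214719 to 35001979 counts.

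Counts were scaled by TMM and tested in R 4.3.3 with edgeR 4.0.16 (quasi-likelihood, terms for group and batch, all 24 libraries) over 15916 genes that passed its filter on low counts (minimum count 10) and held 99.95% of counts, with Benjamini-Hochberg adjustment over all of them. Standard errors come from the F statistic. The comparison of PA responses between batches used a mean for each group and batch. Correlations used log2 CPM with a prior count of 2, 100000 permutations of libraries and all 36 arrangements of the runs of 4 consecutive S numbers (Python 3.11.15, numpy 2.4.6). The fit was tested on simulated data. Alternatives were DESeq2 1.42.0, upper-quartile scaling, no filter, 10 counts in 12 libraries, no batch term, only the groups compared, each batch alone and each library left out. Library sizes without the 8 hormone genes, marker counts without Ctr BSA S21 or αGlu PA S4, and the runs as a block or as units of permutation were added after seeing the data.

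The 5 hormones and the 13 gene lists were chosen with earlier results of these data known. Named beside the hormones were Ins1, Ins2 and Iapp, up to 3 genes of smallest p of a list in a comparison, and the 5 genes most like each hormone. Npy4r, Mboat4, Gm26982 and Gm44033 were named after their counts were seen. Some genes that this rule takes are not reported here. The study's figure legends give 6 independent experiments, and the records do not tie libraries to animals. The p-values therefore measure the spread between libraries, and those of the tests without the block treat libraries of 1 run as independent.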

Additional observations from a re-analysis of the deposited data

Results flagged for a closer look

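Of 20 sets of 6 libraries (5 hormones in 4 groups), 1 held a library far from the others, which is what a rule that picks about 1 set in 20 gives by chance. Pyy in Ctr BSA S1 reached 708 CPM, where the next library of the group had 404 CPM, and this gap was 72.2% of the range of the group. S1 was the smallest library, with 18214719 counts, and its TMM factor of 0.853 lay under those of the other libraries (0.939 to 1.06). As TPM the gap was smaller, 2348 TPM in S1 and 1878 TPM in the next library of the group, and S2 to S4 of the other groups had 2196, 2323 and 2431 TPM. Without S1 the log2 fold change of Pyy with PA in Ctr cells moved from -0.24 to -0.057 and did not pass in either case. In Gcg, Sst, Ppy and Ghrl, S1 held the highest CPM of Ctr BSA but not the highest TPM, which lay in S5, S21, S5 and S9. For Sst, Ppy and Ghrl, leaving out S1 gave the smallest PA response in Ctr cells of all 24 omissions, and each still passed.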

How the results depend on the processing

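The hormones called were 3 in PA against BSA in Ctr cells, 2 in αGlu cells and 3 between batches, and these numbers were the same with each library left out in turn. In Ctr cells they became 2 without the batch term, 2 in batch 1 alone and 1 in batch 2 alone, and in αGlu cells 1 in batch 1 alone and 1 in batch 2 alone, where only 3 libraries a group remain. Without the batch term 2312 and 2271 genes were called with PA, and 2033 and 1644 in batch 1 alone and 1833 and 1902 in batch 2 alone. No setting gave a call on a hormone for αGlu against Ctr or for the difference between both PA responses. The labels give no replicate numbers that the groups share. The study states that the groups of an islet experiment came from the same animal, without tying libraries to animals. A replicate block of 4 consecutive S numbers in place of batch was added after seeing the data. Over all genes, r between libraries of 1 block was 0.10 to 0.37 in batch 1 and 0.018 to 0.18 in batch 2. It was above 0.1 in 25 of 36 pairs. Among the other groups, 17 of 24 libraries were closest to a library of their own block. Each block holds 1 library of each group, as 1 experiment of the study would, but the labels do not name the experiment of a library. With this block the PA response of Gcg differed between batches (-0.47, edgeR adjusted p = 0.000958). The hormones called there thus went from 0 to 1, while 81 of the 15916 tested genes were called. The difference for Sst was -0.0068, and no other call on a hormone changed.

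Signs of small values that had not passed changed as follows, and the cause was not tested. For Gcg with PA in αGlu cells the log2 fold change was -0.0044 by DESeq2, -0.25 in batch 2 and -0.0072 with library sizes without hormone genes, and in Ctr cells it was -0.16 in batch 2. For Pyy with PA in αGlu cells it was 0.064 in batch 1. For αGlu against Ctr in BSA, batch 2 alone gave 0.097 for Gcg, 0.084 for Sst, 0.038 for Ppy and 0.15 for Pyy, and library sizes without hormone genes gave 0.029 for Gcg and 0.029 for Sst. For αGlu against Ctr in PA, batch 2 alone gave 0.0064 for Gcg and 0.052 for Ghrl, and batch 1 alone gave -0.064 for Sst. The difference between both PA responses of Gcg was 0.045 in batch 1. The PA response of Sst in batch 2 against batch 1 was -0.0017 by upper-quartile scaling, -0.0028 with no filter and -0.091 with library sizes without hormone genes.

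With each library left out, Gcg ran from -0.045 to 0.13 for PA in Ctr cells, -0.066 to 0.092 for PA in αGlu cells, -0.12 to 0.056 for the difference of PA responses, -0.11 to 0.062 for αGlu in BSA and -0.14 to 0.036 for αGlu in PA. Sst ran from -0.12 to 0.12 for αGlu in BSA, -0.024 to 0.22 for the difference of PA responses, -0.066 to 0.058 between batches and -0.16 to 0.14 for the PA response between batches. Pyy ran from -0.14 to 0.095 for αGlu in BSA and -0.021 to 0.24 for the difference of PA responses, and Ghrl from -0.071 to 0.47 for αGlu in BSA and -0.33 to 0.072 for αGlu in PA.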
